A study of Ovis aries with 60 samples.

Results

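CCDC168 encodes a long coiled-coil protein, and its transcript was 1 of 28525 genes counted in RNA from sperm of F2 rams. The gene was chosen from these same data, for its wide range between rams and its place among transcripts of late sperm development. Its level, its share of a library and the genes that vary with it are therefore given as description, without a test. Tests are given for the diet line, for library size and for the sperm methylation of the same rams.

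RNA was measured in 20 Polypay F2 rams, 10 from the methionine line and 10 from the control line. The methionine line descends from F0 sires given rumen-protected methionine, a methyl donor, on top of the control diet between weaning and puberty, and the control line descends from their F0 twins on the control diet alone. F1 and F2 animals of both lines ate the control diet, so no ram measured here received the supplement. Each of 10 F0 sires, 5 a line, is represented by 2 rams. The paper bred the F2 generation from 1 F1 son of each F0 sire, so these 2 rams share a father and are not fully independent. The labels do not name the F1 fathers and do not say which F0 sires were twins. Semen came from electroejaculation, and cells were treated with a somatic cell lysis buffer before RNA extraction. The rams are separate animals, with 1 library each, and are named by the titles of their RNA libraries, where T ends the names of the methionine line and C those of the control line.

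Sperm complete their differentiation with transcription largely shut down, so the RNA they carry was mostly made earlier, in spermatocytes and spermatids. Spermatids replace histones with transition proteins and then protamines, build the flagellum with its fibrous sheath and outer dense fibres, and shed most of their cytoplasm. An ejaculate also holds epithelial cells and leukocytes from the genital tract, whose RNA is counted together with that of sperm. In such bulk RNA, fewer cells of a type and less RNA per cell cannot be told apart.

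Total counts ran from 805831 to 13137757 per library, with a median of 3029992 in the control line and 4587077.5 in the methionine line, and 5 libraries held under 2000000. These totals are reads assigned to genes, not reads sequenced. The paper reports numbers of sequenced reads that vary far less between RNA libraries, so a low total here is not shallow sequencing. What set the share of assigned reads was not tested. Libraries differed in the summed levels of marker lists for squamous epithelium, leukocytes and secretory epithelium. SpermRNA382T and SpermRNA485C stood apart from the others, with each of these 3 sums between 129 and 250 CPM, counts per 1000000 counts, against at least 1661 CPM in the other 18 rams. Results for lists are also given without this pair.

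CCDC168 was counted in every library, from 904 to 204057 reads. Levels are CPM scaled by trimmed mean of M-values (TMM), which adjusts each library for its composition, and they ran from 298 CPM in SpermRNA409C to 33191 CPM in SpermRNA359T, a 111-fold range with a median of 1962 CPM. On a log2 scale the standard deviation was 2.01 over the 20 rams, against a median of 0.85 over the 13577 genes that passed the count filter, and CCDC168 ranked 435 among them, the most variable gene having rank 1. SpermRNA359T was highest by any of the 4 scalings computed, and the range was 331-fold when counts were divided by the raw library total.

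CCDC168 took a median of 0.191% of a library's counts. By count, not corrected for gene length, it ranked first in 5 libraries and ranked below the first 100 genes in 9, with a median rank of 77.5. The largest share was 3.90% in SpermRNA359T (95% exact binomial interval 3.88 to 3.91), which was the largest share of any gene in any of the 20 libraries. The smallest was 0.0118% in SpermRNA468C (0.0112 to 0.0124). These intervals cover counting error only. CCDC168 thus led the counts in a minority of the rams, 2 of the methionine line and 3 of the control line.

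In SpermRNA359T the count of CCDC168 was 3.04 times that of the next gene, SF3B1, which encodes a splicing factor subunit. The same ratio to the highest other gene was 2.30 in SpermRNA485C, 1.97 in SpermRNA382T, 1.33 in SpermRNA413C and 1.13 in SpermRNA475C. LOC101103644, a protein-coding gene without a symbol, was the highest gene in 11 of the other 15 libraries. In SpermRNA468C CCDC168 stood at 0.00367 times that gene's count.

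**Figure D1:**
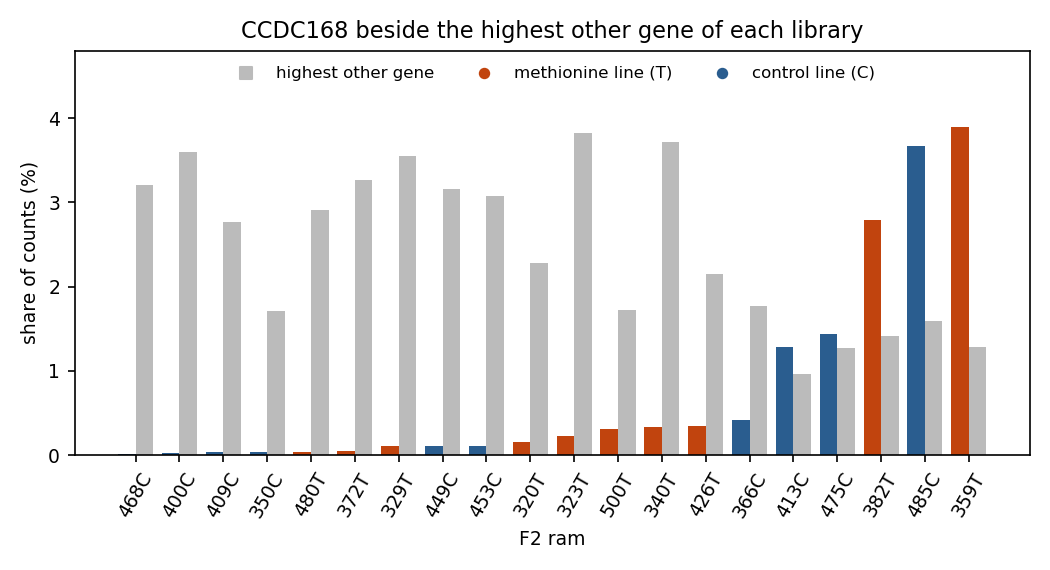
Share of all counts (%) taken by CCDC168 (coloured by diet line) and by the highest other gene (grey) in each of the 20 rams, marked by number and line (T or C) and ordered by the share of CCDC168. CCDC168 passes the grey bar in 5 rams, at shares from 1.28% to 3.90%, and both lines are among them.

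Rams with the same F0 sire differed widely in CCDC168. Among the control sires, the grandsons of sire 6 had 511 CPM in SpermRNA350C and 23544 CPM in SpermRNA485C, a 46.0-fold difference within 1 sire. Those of sire 10 had 328 CPM in SpermRNA468C and 8787 CPM in SpermRNA475C. Those of sire 12 had 2502 CPM in SpermRNA366C and 5552 CPM in SpermRNA413C. The pairs of sires 4 and 24 were closer together and lower. For sire 4 the values were 1011 CPM in SpermRNA449C and 1671 CPM in SpermRNA453C. For sire 24 they were 298 CPM in SpermRNA409C and 577 CPM in SpermRNA400C.

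The methionine line had pairs of both kinds as well. The grandsons of sire 5 had 2254 CPM in SpermRNA320T and 33191 CPM in SpermRNA359T. Those of sire 9 had 879 CPM in SpermRNA372T and 15377 CPM in SpermRNA382T. Those of sire 11 had 3058 CPM in SpermRNA426T and 5042 CPM in SpermRNA340T, the smallest fold difference of the 10 pairs at 1.65. The remaining methionine pairs lay lower. Sire 23 had 1076 CPM in SpermRNA329T and 2991 CPM in SpermRNA323T. Sire 3 had 414 CPM in SpermRNA480T and 1660 CPM in SpermRNA500T.

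The pair of rams differed by more than 10-fold for 4 of the 10 sires, with a median of 3.39-fold. The log2 standard deviation was 2.17 within sires and 1.28 between the means of sires. The second value is of means of 2 rams, which averaging alone makes smaller, so the 2 values are not set against each other.

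**Figure D2:**
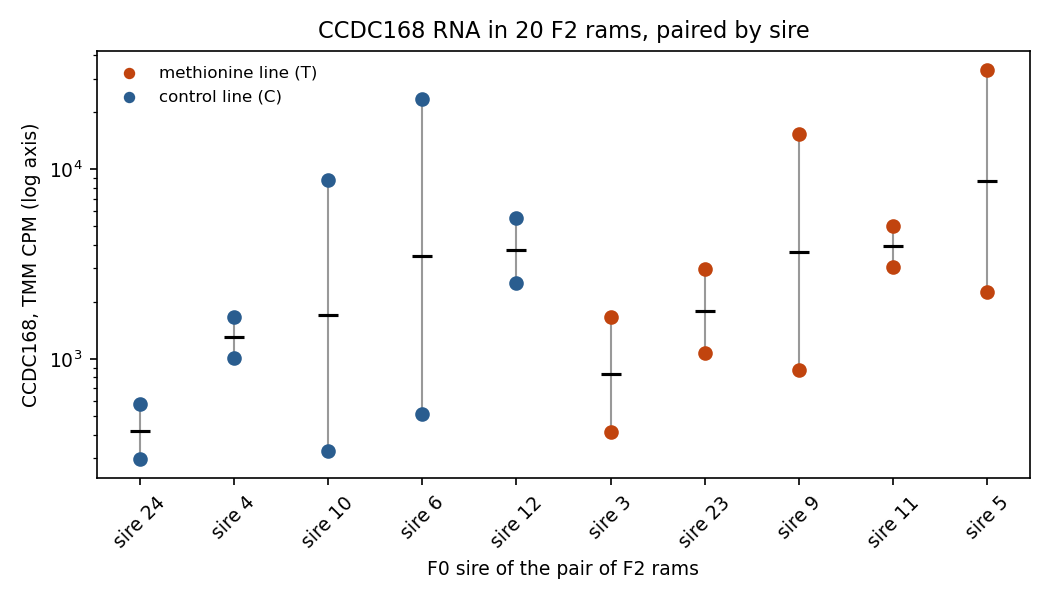
CCDC168 in TMM CPM on a log axis for each ram (points), with the 2 rams of an F0 sire joined by a line and the mean of their log2 values as a dash. The pairs span 1.65-fold (sire 11) to 46.0-fold (sire 6), and the lines overlap across most of the range.

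The diet comparison asks whether the F0 supplement was followed by another level of this transcript in grandsons. In the methionine line CCDC168 ran from 414 to 33191 CPM with a median of 2622 CPM, and in the control line from 298 to 23544 CPM with a median of 1341 CPM. The ranges of the lines overlapped over most of their length. The mean log2 level was 11.47 ± 1.90 (SD, n = 10) in the methionine line and 10.68 ± 2.14 (SD, n = 10) in the control line. A permutation test of the difference, 0.79 on the log2 scale, gave p = 0.385 (two-sided).

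In the quasi-likelihood fit of edgeR over all 13577 genes, the log2 fold change of CCDC168, methionine over control, was 0.56 ± 0.92 (SE), with an adjusted p of 1.00. In that fit 0% of genes were called at an adjusted p under 0.05, and 104 (0.766%) had an unadjusted p under 0.05. DESeq2 also called 0 genes, with 174 at an unadjusted p under 0.05. Each count is a share under 0.05 of the 13577 genes, the share that uniform p-values would give. Taking the mean of the 2 rams of each sire, the difference was 0.79 with p = 0.325 (exact permutation test, two-sided, n = 5 sires a line, smallest possible p 0.00794). A difference of this size is smaller than the spread between rams of a line, and neither fit could tell it from no difference.

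Library size, meaning here the total of reads assigned to genes and not sequencing depth, was compared with CCDC168 next, since the totals differed 16.3-fold. The log2 TMM CPM of CCDC168 had r = -0.29 (permutation p = 0.210) and rho = -0.35 (permutation p = 0.137) with the log2 total of all other genes over the 20 rams. Without SpermRNA413C and SpermRNA468C, the totals farthest from the median, r was -0.16. With levels scaled by the raw library total the values were r = -0.49 (permutation p = 0.0287) and rho = -0.50 (permutation p = 0.0279), and r was -0.35 without the same pair. These levels are divided by nearly the same total that they are compared with, which by itself favours a negative coefficient. The permutation p does not allow for this, so no relation to library size is read from it. The coefficients differed with the scaling and, in part, with 2 libraries. The adjustment for several tests covered 8 coefficients at the chosen scaling. They were r and rho with library size and with mean sperm methylation, each for CCDC168 and for its ratio to sperm marker genes. The smallest adjusted p of the 8 was 0.675. The coefficients at the raw library total were outside this family and were not adjusted.

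Likeness to CCDC168 was measured as Spearman's rho of TMM CPM over the 20 rams. The points share libraries, TMM factors and cell makeup, so these values describe these libraries and carry no p. The coefficient was at least 0.7 for 1229 of 13576 genes (9.05%) and at most -0.7 for 322 (2.37%), or for 692 and 63 without SpermRNA382T and SpermRNA485C, and 6511 (48%) were above 0. The median over all genes was -0.05. The values of single genes and lists are read against these shares.

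The 15 named genes most like CCDC168 had rho from 0.95 to 0.98. USP44, a deubiquitinase of the mitotic checkpoint, was first at 0.98, ahead of DENND4C, which activates Rab GTPases, and POLK, a translesion DNA polymerase. USP44 had 6.78 CPM in SpermRNA468C, a median of 29.0 CPM and 432 CPM in SpermRNA359T. EFCAB13, an EF-hand protein, had 36.9 CPM in SpermRNA409C, a median of 463 CPM and 7310 CPM in SpermRNA359T. TEX15, a germ cell protein needed in meiosis, had 41.7 CPM in SpermRNA480T, a median of 271 CPM and 5997 CPM in SpermRNA485C. All 3 had their lowest values in rams that were also among the lowest 3 for CCDC168.

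The order of the top rams was not shared by all of these genes. TEX15 was 2688 CPM in SpermRNA359T and 5997 CPM in SpermRNA485C, the opposite order to CCDC168, whereas USP44 was 228 CPM in SpermRNA485C and 432 CPM in SpermRNA359T. The others of the 15 included DPY19L2, which attaches the acrosome to the nucleus (rho 0.96), CFAP97D1, a protein of the sperm flagellum (0.97), and several proteins of centrioles and cilia. Those were CNTLN (0.97), CPLANE1 (0.96), ALMS1 (0.95) and C2CD3 (0.95). ASCC3, a helicase, and PPWD1, a prolyl isomerase of the spliceosome, both had rho of 0.96. AKNAD1 (0.96) and ZBBX (0.95) complete the 15.

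The ratio of CCDC168 to each of these genes in the same library is given as a description, since genes chosen for a high rho have a narrow ratio by that choice. CCDC168 was 3.31 to 8.07 times EFCAB13, a 2.44-fold span of the ratio, while EFCAB13 itself ranged 198-fold. The ratio to USP44 ran from 32.3 to 113 and that to TEX15 from 3.93 to 13.1. The ratio to POLK had the widest span of the 15, at 6.19-fold. These ratios come from counts of 1 library and no scaling enters them, but gene lengths were not used, so they say nothing of numbers of molecules. Of the 50 genes with the highest rho, 14 had no symbol beyond a LOC number and are not named.

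**Figure D3:**
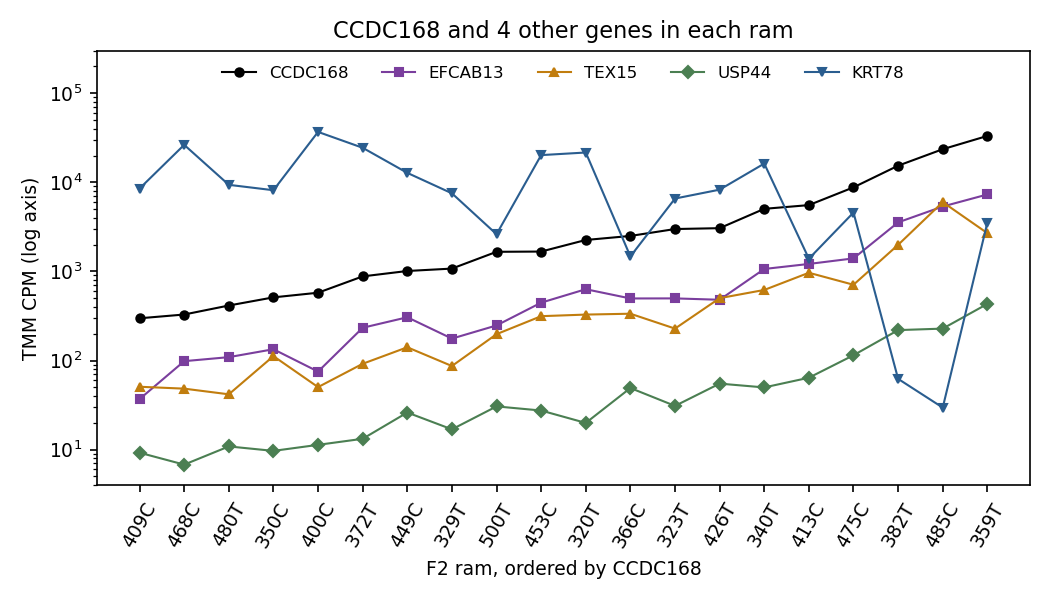
TMM CPM on a log axis of CCDC168, of EFCAB13, TEX15 and USP44 from the 15 genes most like it, and of KRT78, an epithelial keratin, in 20 rams ordered by CCDC168. EFCAB13, TEX15 and USP44 climb with CCDC168 across the rams, whereas KRT78 is at 29.6 CPM in SpermRNA485C and 36816 CPM in SpermRNA400C.

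The 15 named genes least like CCDC168 had rho from -0.86 to -0.80. SMARCD2, a subunit of a chromatin remodelling complex, was lowest at -0.86, with 46.7 CPM at the median. CCDC88C, a Wnt pathway regulator, was at -0.85. ADA, adenosine deaminase, was at -0.84 and ran from 8.05 to 4385 CPM. The others were GCNT3, a mucin glycosyltransferase, and SLC24A1 (both -0.83), then TAGLN2, ADCY7, MAPKAPK5 and TIMP2 (each -0.82), and TAC4, COQ8A, SRPRA, FGD2, LRRC32 and ARHGDIA (-0.81 to -0.80).

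With levels divided by the library total without CCDC168, the median rho of all genes moved from -0.05 to 0.52, and values at that scaling are read against 0.52. SMARCD2 was then at -0.45 and CCDC88C at -0.25. SLC24A1 was at 0.23 and MAPKAPK5 at 0.32, both above 0 but below that median, TAC4 was at -0.03, ADA at -0.71 and GCNT3 at -0.72. The 15 highest genes had rho from 0.96 to 0.99 under it, with EFCAB13 at 0.99 and USP44 at 0.97.

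Lists of marker genes for sperm and for other cells were then compared with CCDC168. Sperm chromatin genes came first, the transition proteins, protamines and their partners that compact the sperm nucleus. Of 13 genes on the list 7 were matched, all passed the count filter, and 6 had rho of at least 0.7, against 9.05% of all genes, and the median was 0.83. PRM1, a protamine, ran from 34.8 to 1531 CPM with rho of 0.67, and TNP2, a transition protein, from 5.51 to 370 CPM with rho of 0.83. PRM3 had the highest rho of the list at 0.88. TSSK6, a kinase of chromatin condensation, had rho of 0.83, CHD5, a chromatin remodeller, had 0.80, and all 7 were above 0.

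Genes of the fibrous sheath and outer dense fibres behaved likewise. Of 23 genes on the list 22 were matched and 16 passed the filter. Of these 13 had rho of at least 0.7, against 9.05% of all genes, and the median was 0.79. FSIP1, which binds the fibrous sheath, had the highest rho at 0.92, ahead of SPATA19 at 0.87 and CABYR, a calcium-binding sheath protein, at 0.86. ODF1, an outer dense fibre protein, ran from 2.12 to 476 CPM with rho of 0.80, and ODF2 had rho of 0.80 as well. AKAP4, the main sheath protein, had rho of 0.76.

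The late spermatid list gave a similar picture. Of 25 genes on the list 24 were matched and 18 passed. Of these 14 had rho of at least 0.7, against 9.05% of all genes, and the median was 0.79. SPEM1, needed for shedding of cytoplasm, ran from 40.9 to 3876 CPM with rho of 0.83, and SMCP, of the mitochondrial capsule, from 23.4 to 2296 CPM with rho of 0.87. SPATA3 had rho of 0.86 and CRISP2, a cysteine-rich secretory protein, 0.66. SPATA6, needed for the connecting piece, had the highest rho at 0.89. PGK2, a testis glycolytic enzyme, had the lowest at 0.54. The sum of this list had rho of 0.89 with CCDC168, the highest of the list sums, and r of 0.90, and rho was 0.85 without SpermRNA382T and SpermRNA485C.

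Earlier and acrosomal germ cell genes were less uniform. All 19 meiotic and premeiotic genes were matched and 10 passed, of which 1 had rho of at least 0.7, close to the 9.05% of all genes. That gene was SYCP2 of the synaptonemal complex, at 0.85. Of the 10, 9 were above 0, with a median of 0.59. With levels divided by the library total without CCDC168, 7 of the 10 had rho of at least 0.7, against 26.4% of all genes, and the median was 0.74. Without SpermRNA382T and SpermRNA485C 1 of the 10 did, against 5.10% of all genes, and the median was 0.44. STRA8, which starts meiosis, was at -0.66, whereas DDX4, a germ cell helicase, was at 0.66 and MEI1 at 0.52. Of 19 acrosome and egg binding genes 16 were matched and 5 passed, of which 2 had rho of at least 0.7, against 9.05% of all genes. They were DPY19L2 at 0.96 and ACRBP, which binds proacrosin, at 0.70. TMEM95, a sperm membrane protein of egg fusion, was at -0.59, SPACA4 was at -0.40, and the median of the 5 was -0.05, the same as over all genes. The sums of the meiotic and acrosome lists had rho of 0.61 and 0.67, or 0.47 and 0.55 without SpermRNA382T and SpermRNA485C. The acrosome sum was mostly DPY19L2 in the rams highest for CCDC168, with 973 of 1119 CPM in SpermRNA359T. It was 841 of 1008 CPM in SpermRNA485C and 971 of 1183 CPM in SpermRNA382T. DPY19L2 is 1 of the genes named for their high rho, so that sum does not describe the list as a whole.

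Genes that share the coiled-coil domain name or serve flagellar assembly were intermediate. Of 43 on the list 38 were matched and 28 passed, of which 9 had rho of at least 0.7, against 9.05% of all genes. Of the 28, 26 were above 0, with a median of 0.64. The count moved with the settings, to 3 of 28 without SpermRNA382T and SpermRNA485C (5.10% of all genes), to 4 of 28 without the 5 libraries under 2000000 counts (7.40% of all genes) and to 20 of 28 with the library total without CCDC168 (26.4% of all genes). The median was 0.51, 0.55 and 0.76 under these settings. CCDC38 was highest at 0.81 with CCDC196 at 0.80, and QRICH2 was lowest at -0.60, with ARMC2 at -0.36. CFAP54, of the central apparatus, was at 0.62. CCDC136 had a median of 53.8 CPM and rho of 0.63. Lengths were not used here, so levels of CCDC168 and of these genes were not compared.

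Genes of other cells in semen mostly had rho below 0. Of 24 squamous epithelium genes 19 were matched and 16 passed, of which 0 had rho of at least 0.7, 1 was at or below -0.7, and the median was -0.62. KRT4, a keratin of wet epithelium, ran from 10.4 to 21138 CPM with rho of -0.75. PPL, periplakin, was at -0.69, S100A14 at -0.66 and CNFN, cornifelin, at -0.57. TP63, at 0.20, was the 1 gene of the list above 0, and KRT5, KRT6A and LY6D did not pass.

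Of 24 leukocyte genes 23 were matched, all passed, and 22 were below 0, with a median of -0.44, and S100A9 ran from 32.7 to 37889 CPM with rho of -0.65. S100A8, its partner in calprotectin, was at -0.68, CD68 at -0.64 and CSF3R, the receptor of a granulocyte growth factor, at -0.43. ITGAM, at 0.14, was the 1 leukocyte gene above 0. Of 15 simple and secretory epithelium genes 14 were matched and 12 passed, of which 9 were below 0, with a median of -0.57, and WFDC2 was lowest at -0.71. ELF3, KRT19, MUC1 and PIGR, the 4 with the highest median CPM, were each at -0.64. KRT18 (0.22), EPCAM (0.10) and AGR2 (0.05) were above 0, at low medians of 5.79, 10.7 and 3.70 CPM, and KRT8 and SLPI did not pass. None of the leukocyte genes passed -0.7. The 10 genes with the largest median shares, LOC101103644, LOC101117431, MUC21, EMP1, KRT78, DMBT1, S100A9, TMEM229B, LOC101103771 and ACTG1, had rho from -0.65 to -0.58. The 13 mitochondrially encoded genes of a further list were not analysed here.

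**Figure D4:**
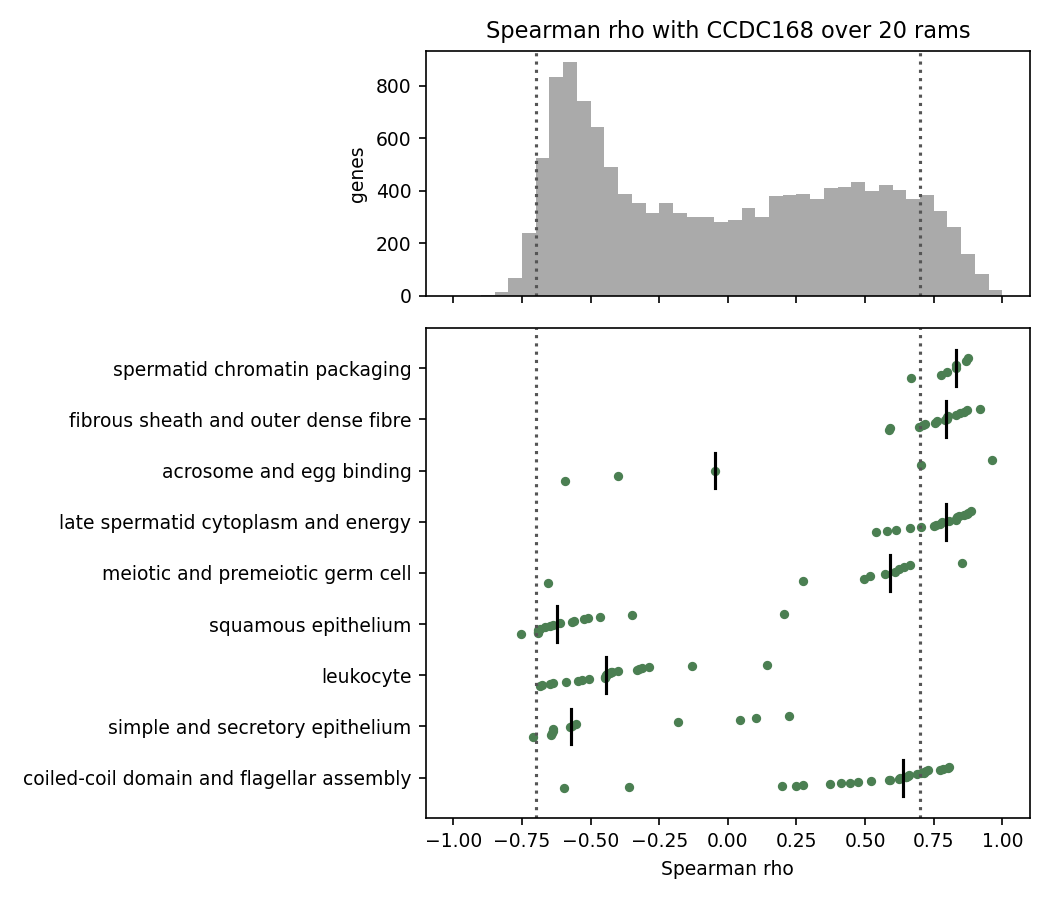
Top, the number of genes by Spearman's rho with CCDC168 over 20 rams. Bottom, rho of each listed gene that passed the count filter (points) with the list median (bar) and dotted lines at -0.7 and 0.7. The chromatin, fibrous sheath and late spermatid lists have medians from 0.79 to 0.83, the coiled-coil list 0.64, the meiotic list 0.59 and the acrosome list -0.05, and the squamous, leukocyte and secretory lists between -0.62 and -0.44.

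With the library total without CCDC168 as the scale, all 7, 16 and 18 genes of the chromatin, fibrous sheath and late spermatid lists had rho of at least 0.7, against 26.4% of all genes, and the squamous, leukocyte and secretory medians were -0.50, -0.15 and -0.43 against 0.52 over all genes. The median of the acrosome list was then 0.53, close to that of all genes, as it was at the first scaling. With DESeq2 size factors 7 of 7, 14 of 16 and 14 of 18 genes of the same lists had rho of at least 0.7, against 9.72% of all genes. Without SpermRNA382T and SpermRNA485C, 6 of 7, 9 of 16 and 10 of 18 genes of the same lists had rho of at least 0.7, against 5.10% of all genes. Without this pair the medians of the squamous, leukocyte and secretory lists were -0.52, -0.27 and -0.43 with 0 genes of these lists at or below -0.7, and that of the acrosome list was -0.08, with 1 of 5 at 0.7 or above.

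The summed squamous, leukocyte and secretory levels spanned wide ranges, from 185 to 50922 CPM, from 177 to 58686 CPM and from 129 to 25681 CPM. Their rho with CCDC168 was -0.65, -0.68 and -0.65. SpermRNA359T, the highest for CCDC168, had 3143, 3986 and 3995 CPM of these sums. It was not among the lowest pair but lay below the medians over all rams, 10527.5, 13229 and 8714 CPM. Every ram in which CCDC168 ranked first by count was below each of these medians. SpermRNA366C and SpermRNA500T were also below each of them, and CCDC168 did not rank first there. Without SpermRNA382T and SpermRNA485C the 3 values of rho were -0.54, -0.58 and -0.53. The part of other cell types in the level of CCDC168 was not tested beyond these values.

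**Figure D5:**
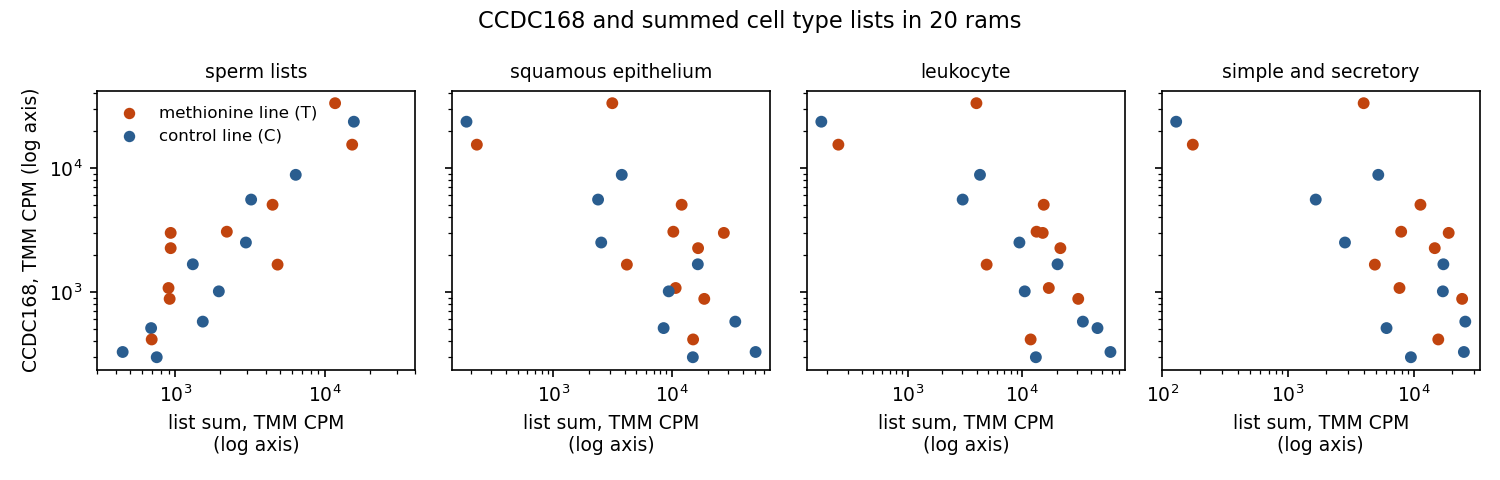
CCDC168 against the summed TMM CPM of the chromatin, fibrous sheath and late spermatid lists (sperm lists) and of the squamous, leukocyte and secretory lists in 20 rams (points, coloured by line; all axes are log). CCDC168 climbs with the sperm lists (rho 0.87), and SpermRNA382T and SpermRNA485C lie alone at the low end of the other lists.

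A ratio within each library sets CCDC168 beside sperm RNA without any scaling. CCDC168 was compared with the sum of the chromatin, fibrous sheath and late spermatid lists, called the sperm lists here and leaving out the acrosome list, which ranged 35.1-fold and had rho of 0.87 with it, or 0.83 without SpermRNA382T and SpermRNA485C. The ratio ran from 0.345 in SpermRNA500T to 3.22 in SpermRNA323T, with a median of 1.07. Its 9.33-fold span compares with 111-fold for the TMM CPM of CCDC168 and 331-fold for its share of counts, which no scaling enters. CCDC168 was chosen for its place among transcripts of late sperm development, and the lists were chosen with earlier results known. These choices favour a narrow ratio, so the span is a description only. SpermRNA323T had the highest ratio at a middling level of 2991 CPM, and SpermRNA359T had 2.85. SpermRNA485C, the second highest for CCDC168, had 1.51, and SpermRNA382T had 1.01. With the acrosome list added to the sum, the ratio ran from 0.307 in SpermRNA409C to 2.60 in SpermRNA359T, so other rams were then lowest and highest. In SpermRNA359T the acrosome part of that sum was mostly DPY19L2.

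The ratio had a median of 1.16 in the methionine line, from 0.345 to 3.22, and of 0.795 in the control line, from 0.379 to 1.73. On the log2 scale the methionine line was higher by 0.56, with p = 0.180 (permutation test, two-sided, n = 10 a line), which does not pass, and by 0.56 with p = 0.188 (permutation test) when the acrosome list was added. Both tests took rams of the same sire as independent and were not repeated with sire means. The ratio had r = 0.11 (permutation p = 0.653) and rho = -0.01 (permutation p = 0.977) with library size, and r of 0.27 without SpermRNA413C and SpermRNA468C.

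Among the genes beside CCDC168 in the current sheep RefSeq annotation, a rho was computed for TPP2 and BIVM, which passed the filter. TPP2, a peptidase, had a median of 38.9 CPM and rho of -0.42. METTL21C, a lysine methyltransferase, and TEX30 had medians of 1.98 and 2.71 CPM and did not pass the filter. BIVM had a median of 4.63 CPM and rho of 0.05. The median count, not corrected for length, was 6277 for CCDC168 and at most 158 for these neighbours. LOC121820468 and POGLUT2 were not analysed here.

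Sperm methylation was available for the same 20 rams. Mean methylation over 122453 listed CG cytosines, an average over many sites and not a value at this gene, ran from 68.5% in the ram of SpermRNA372T to 73.4% in that of SpermRNA320T, at a median coverage of 12 to 37 reads per cytosine in each ram. It had r = -0.27 (permutation p = 0.253) and rho = -0.22 (permutation p = 0.349) with the log2 level of CCDC168, adjusted p 0.675 and 0.698. Without SpermRNA320T and SpermRNA480T r was -0.21. With the ratio to the sperm lists it had r = -0.18 (permutation p = 0.442) and rho = -0.14 (permutation p = 0.562), and without SpermRNA320T and SpermRNA480T r was -0.32 and rho -0.20. No relation was detectable with 20 rams. Methylation at the CCDC168 locus was not analysed here.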

How the data were processed

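Sperm RNA was sequenced as single-end reads; the authors trimmed them with Trimmomatic, aligned them with STAR to the Oar_rambouillet_v1.0 genome and deposited raw gene counts. The annotation and the strand column used are not given in the sources used here, so overlapping and antisense transcripts cannot be told apart from CCDC168. The methylation files hold the deposited counts of methylated and covering reads per cytosine, from Bismark alignments. A gene was kept if over 10 rams had a count of 15 or above (13577 genes), and counts were scaled by TMM in edgeR 4.0.16 (R 4.3.3) and logged as log2(CPM + 1). The paper words its filter in the same way but reports more expressed genes, and the reason for that gap was not tested. Diet lines were compared by edgeR's quasi-likelihood test with Benjamini-Hochberg adjustment. Alternatives used DESeq2 1.42.0, limma 3.58.1 and SciPy 1.17.1 (100000 permutations). The edgeR and rho steps were also run on simulated counts with known effects, which lacked the differences in cell makeup between the real libraries. The members and lists were chosen with earlier results of these data known. Named genes are the 15 with the highest and the 15 with the lowest rho that carry a symbol, the 10 with the largest median share, up to 3 neighbours on either side, and the leading members of each list; other list members were named for their role or rho after their values were seen. Neighbours and names came from RefSeq's ARS-UI_Ramb_v3.0, another build than that of the files, so no coordinates, sequence or lengths are given and the planned methylation at the locus was not run.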

Additional observations from a re-analysis of the deposited data

Results flagged for a closer look

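In each line the ram with the most CCDC168 was set against the others by its gap to the next ram over the range of the line, with a limit of 0.466 for 10 samples. The gaps are of untransformed values, not of the log2 levels used elsewhere. Chance alone passes this limit in about 1 of 20 groups, but CCDC168 was chosen for its wide range between rams, which favours large gaps, so the values are a description and that rate does not apply to them. SpermRNA485C of the control line had 23544 CPM of CCDC168 against 8787 CPM in the next ram (gap 0.635), and 3.67% of its counts against 1.44% (gap 0.611). SpermRNA359T of the methionine line had 33191 CPM against 15377 CPM in the next ram (gap 0.544), but by share, 3.90% against 2.79%, its gap of 0.286 was under the limit. The ratio of CCDC168 to the sperm lists was under the limit in both lines.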

How the results depend on the processing

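No gene was called by diet line under edgeR, DESeq2, upper quartile factors or limma voom with sire as a random block. Nor was any called with no count filter or without the 5 libraries under 2000000 counts. Genes at an unadjusted p under 0.05 were 85 to 174 of 13577, or 715 of 27658 with no count filter. The log2 fold change of CCDC168 stayed between 0.27 and 0.79 with adjusted p of 1.00 in each of these fits. The library-size rho of -0.35 became -0.50 with CPM of the raw library total and also of the total without CCDC168, both then with permutation p = 0.0279. At both of these scalings the total is also the divisor of the level, which that p does not allow for. The 1229 genes with rho of at least 0.7 became 3586 with CPM of the total without CCDC168, 589 with sire means and 692 without SpermRNA382T and SpermRNA485C, and counts under Pearson's r, DESeq2 size factors and without the 5 libraries of low total were 1004 to 1700. The 322 genes at most -0.7 became 739 with Pearson's r, 96 with CPM of the total without CCDC168, 174 with sire means, 200 without the 5 libraries of low total and 63 without SpermRNA382T and SpermRNA485C. With no count filter 27657 genes in place of 13576 were ranked, and 1157 (4.18% against 9.05%) had rho of at least 0.7 and 112 (0.405% against 2.37%) at most -0.7. With the total without CCDC168 the sums of the acrosome and meiotic lists had rho of 0.82 and 0.80, the acrosome sum being mostly DPY19L2 in the rams highest for CCDC168. Without SpermRNA382T and SpermRNA485C the acrosome, meiotic, squamous, leukocyte and secretory sums had 0.55, 0.47, -0.54, -0.58 and -0.53. With the total without CCDC168, SLC24A1 (0.23) and MAPKAPK5 (0.32) were above 0, but the median of all genes was 0.52 there and both stayed below it. Leaving out these rams or the 5 libraries of low total, the within-library ratio, with or without the acrosome list, and the mean methylation were chosen after seeing the data. The causes were not tested. No paired analysis was possible because the lines share no replicate numbers in the labels and no source used here says which F0 sires were twins of each other. Methylation at the locus and its alternatives were not run. Counting error matters little for CCDC168 itself (at least 904 reads) and is larger for genes near 15 counts.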
